A study of Mus musculus with 3 samples.

Results

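The genes of the mitochondrial respiratory chain and ATP synthase were followed in RNA bound to macrophage chromatin. Members were chosen by symbol: Nduf subunit genes, Sdha to Sdhd, Uqcr genes, Cox4 to Cox8 genes, Atp5 genes and the mtDNA-encoded mt-Nd, mt-Co, mt-Cytb and mt-Atp genes. A member also had to have at least 1 protein-coding transcript in GENCODE M21. The rule gave 98 genes of 55536 annotated genes, 85 on nuclear chromosomes and 13 on mtDNA. They carry 97 distinct symbols, since Atp5o has 2 entries, and 12 further symbols that match the pattern have no protein-coding transcript. No measured value entered the rule. The cells were C57BL/6J bone-marrow-derived macrophages, that is, mouse macrophages grown from marrow. All 3 libraries belong to 1 group that had 100 ng/ml lipid A for 12 h, a washout of 12 h and 100 ng/ml lipid A once more for 90 min. Lipid A is the membrane anchor of bacterial lipopolysaccharide. Chromatin was separated from the cells, ribosomal RNA was removed and total RNA was sequenced. Starting RNA differed by label, with 1 µg in replicate 1, 250 ng in replicate 2 and 500 ng in replicate 3. No untreated cells were analysed here, so no value below is a response to lipid A. Whether the replicates are separate cultures or animals is not stated, so the spread may be partly technical.

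The respiratory chain passes electrons from NADH (complex I) and succinate (complex II) through ubiquinone, complex III, cytochrome c and complex IV to oxygen. Complexes I, III and IV pump protons across the inner mitochondrial membrane, and ATP synthase (complex V) uses the gradient to make ATP. Most subunits are encoded in the nucleus and imported. The mitochondrial genome encodes a small set of hydrophobic core subunits, copied inside the organelle as long RNAs that are cut between genes, and complex II has no mtDNA-encoded subunit. Activated macrophages are known for a shift towards glycolysis and for succinate oxidation by complex II as a source of reactive oxygen species.

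The 3 libraries, in the order of replicates 1 to 3, held 12671700, 21747001 and 16915406 expected counts. All 10 macrophage markers had at least 1 TPM in every library, with sums of 1096, 1238 and 1050 TPM. The marker lists of neutrophils, T and B cells, fibroblasts and muscle summed to less than 1 TPM in every library. The erythroid and endothelial lists summed to 4.63, 5.34 and 3.85 TPM and to 36.6, 16.1 and 26.0 TPM, with 1 of 3 markers each at 1 TPM or more in every library, and their part in the levels below was not tested. The libraries differed by more than sampling noise, with a chi-square per degree of freedom of 176, 96.9 and 34.1 for replicates 1 and 2, 1 and 3, and 2 and 3. TPM is a length-corrected level relative to all transcripts of a library. Values are TPM from the deposited gene table, listed for replicates 1, 2 and 3 in that order, and means carry the SD of the 3 libraries.

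Most nuclear members were on chromatin at low levels. At least 1 TPM in each library, the detection limit used here, was reached by 72 of 85 nuclear members, and by 41.1% of all protein-coding nuclear genes. At least 10 TPM in each library was reached by 24 of 85, against 19.1% of all protein-coding nuclear genes. The median nuclear member had 5.18, 5.62 and 6.51 TPM, against 5.30, 5.78 and 5.92 TPM for 12322 other protein-coding genes whose mean reached 0.1 TPM. The difference of these medians on the log2(TPM + 1) scale was -0.03, -0.03 and 0.12, a mean of 0.02 ± 0.09, smaller than the spread between libraries. The floor of 0.1 TPM was set for the other genes only, while all 85 members were kept. The difference was 2.33 ± 0.14 with no floor and -0.41 ± 0.07 over those genes of both sides that averaged 1 TPM or more, so its size and direction depend on which low genes are counted. Without the 8 tissue-restricted paralogs the difference was 0.23 ± 0.06. Counted without length correction, as TMM-scaled CPM (counts scaled to library size), it was -1.49 ± 0.08. Nuclear members are short genes, with a median span of 7245 bases among the detected ones, against 24484 bases for all detected protein-coding genes. Their median effective length, the transcript length that TPM is corrected by, was 622 bases, against 1986.5 bases. The nuclear members together took 0.0629%, 0.0624% and 0.0665% of expected counts.

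**Figure D1:**
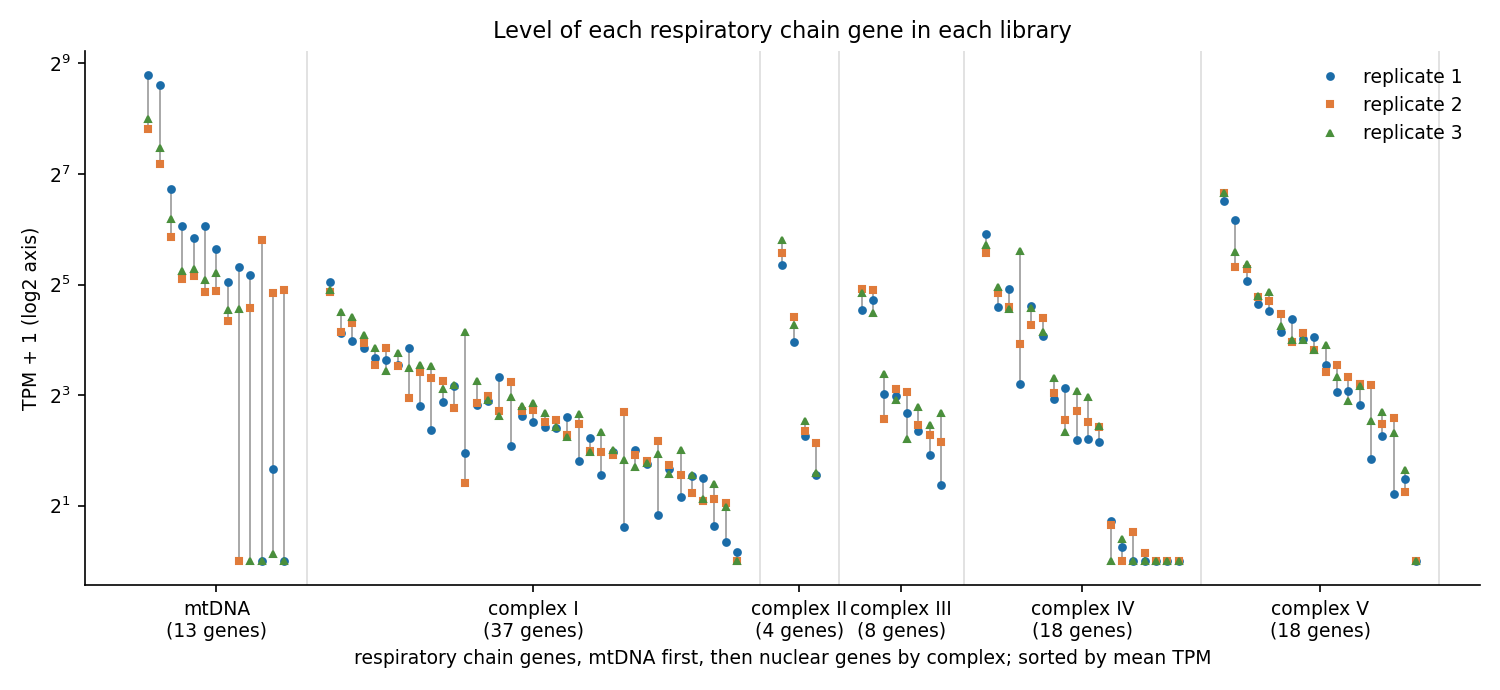
Level of each of the 98 genes as TPM + 1 on a log2 axis, with a point per library and a grey line from the lowest to the highest library. The mtDNA genes and then the nuclear genes of complexes I to V are sorted by mean TPM. The median member lay at 36.8 TPM for mtDNA, without chromosome 1 copies, and at 5.77 TPM for nuclear genes. In some libraries 5 mtDNA genes dropped to or near 0.

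Complex I, the NADH dehydrogenase, had the largest nuclear set, and its core subunits stood above its accessory ones. The 7 nuclear core subunits, which hold the flavin and the iron-sulfur clusters, had a median of 9.04, 9.67 and 10.7 TPM. The 29 accessory subunits, which surround and stabilise the core, had a median of 3.24, 4.57 and 4.40 TPM. The highest was Ndufs1, the large iron-sulfur subunit, with 32.0, 28.3 and 29.0 TPM. Ndufa10, an accessory subunit of the membrane arm, had 16.5, 16.8 and 21.8 TPM. Ndufs1 lay above Ndufa10 in every library. The lowest detected member was Ndufb3 with 1.82, 1.12 and 1.17 TPM. Ndufa5, Ndufa8, Ndufb6 and Ndufc2 missed the limit in replicate 1, at 0.540, 0.560, 0.270 and 0.770 TPM, and Ndufb6 also in replicate 3, at 0.980 TPM. They rested on few reads: Ndufa5 had 2, 19 and 9 counts and Ndufc2 4, 24 and 16 counts. Complex I as a set lay 0.50 ± 0.08 below the other nuclear members on the log2(TPM + 1) scale, and was lower in 3 of 3 libraries. Its median was 4.30, 5.51 and 5.40 TPM, against 6.99, 7.90 and 7.75 TPM for the other nuclear members.

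Complex II, succinate dehydrogenase, is also an enzyme of the tricarboxylic acid (TCA) cycle, and its 4 subunits differed widely. Sdha, the flavoprotein that oxidises succinate, had 40.2, 46.3 and 55.3 TPM. Sdhb, the iron-sulfur subunit, had 14.7, 20.4 and 18.4 TPM. The membrane anchors were lower, with 3.77, 4.10 and 4.81 TPM for Sdhd and 1.93, 3.37 and 2.00 TPM for Sdhc. No library broke the order of the 2 catalytic subunits above the 2 anchors in total TPM. Of these TPM, protein-coding transcripts held a mean of 32.2% for Sdha and 28.1% for Sdhb, and 100% for each anchor. The lead of the catalytic subunits is thus smaller on protein-coding transcripts, and little of the lead of Sdhb over Sdhd is left. For Sdhc the level depended on the table: the other transcript table, made from the reads directly, gave 13.4, 14.0 and 16.1 TPM. There Sdhd had 4.07, 4.56 and 5.08 TPM, so Sdhc was the higher anchor, while Sdha and Sdhb stayed above both in total TPM. The order on protein-coding transcripts alone was not compared there. The set lay 0.55 ± 0.10 above the other nuclear members on the log2(TPM + 1) scale in 3 of 3 libraries, a median over 4 genes.

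Complex III, the cytochrome bc1 complex, was led by Uqcrc1, a core protein on the matrix side, with 22.3, 29.4 and 27.7 TPM. Uqcrh, the hinge subunit at the cytochrome c1 site, had 25.3, 29.1 and 21.4 TPM, and the ranges of the pair overlapped. Uqcrb, a small subunit near the quinone site, had 7.08, 4.90 and 9.39 TPM. All 8 members were detected, down to Uqcrq, a small accessory subunit, with 1.60, 3.47 and 5.36 TPM. Uqcrfs1, the Rieske iron-sulfur protein, had 2.78, 3.84 and 4.48 TPM. The difference from the other nuclear members, 0.08 ± 0.14 on the log2(TPM + 1) scale, was smaller than the spread between libraries, and it was -0.21 ± 0.11 in the other transcript table. Cyc1, the cytochrome c1 gene that the symbol rule leaves out, had 4.71, 10.7 and 9.78 TPM.

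Complex IV, cytochrome c oxidase, held broadly expressed genes at moderate levels and 7 tissue-restricted paralogs near 0. Cox7c, a small membrane subunit, led with 59.1, 46.4 and 51.6 TPM. Cox4i1, the broad form of regulatory subunit 4, had 23.1, 27.8 and 30.2 TPM, and Cox5a, a matrix-side subunit, had 29.3, 23.3 and 22.5 TPM. Cox7c was higher than both in each library, while the ranges of Cox4i1 and Cox5a overlapped. In the other transcript table Cox4i1 had 76.7, 65.9 and 77.7 TPM and Cox7c 69.9, 71.5 and 76.2 TPM, so Cox7c did not lead there in replicates 1 and 3. The lowest detected gene was Cox8a with 3.47, 4.39 and 4.41 TPM, and the other transcript table gave it 30.4, 18.8 and 17.6 TPM. Over all 18 genes the set lay 0.34 ± 0.13 below the other nuclear members on the log2(TPM + 1) scale. With the tissue-restricted paralogs left out of both sides the difference was 0.91 ± 0.39 in the other direction, over 11 genes with a median of 8.19, 14.1 and 16.6 TPM. Ndufa4, which carries a complex I symbol and is now counted to complex IV, had 1.94, 2.91 and 4.07 TPM and was kept under its symbol.

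Complex V, ATP synthase, held the highest single nuclear member by total TPM. Atp5b, the catalytic beta subunit of the F1 head, was the highest nuclear gene of the chain on that measure with 90.6, 99.7 and 100.2 TPM. Atp5k, the e subunit at the dimer interface, had 71.2, 38.8 and 46.9 TPM, and Atp5j, the coupling factor of the peripheral stalk, had 32.5, 37.8 and 40.5 TPM. Atp5b lay above Atp5k in each library, and replicate 1 alone was high for Atp5k. After Atp5b the next highest nuclear members by mean TPM were Cox7c, Atp5k and Sdha, of complexes IV, V and II. Other F1 genes were lower than Atp5b: Atp5a1, the alpha subunit, had 24.2, 26.5 and 26.9 TPM and Atp5d, the delta subunit, 3.82, 4.57 and 5.48 TPM. The lead of Atp5b rests on isoforms that are not protein-coding: on protein-coding transcripts alone Atp5b had 12.9, 14.5 and 18.1 TPM and Atp5a1 16.0, 18.5 and 20.5 TPM, so Atp5a1 was the higher in each library. The protein-coding transcript Atp5k-201 was also above Atp5b there, with 23.7, 17.1 and 19.0 TPM. Cox7c, with a mean of 95.2% of its TPM on protein-coding transcripts, was above it too. The lowest detected gene was Atp5g1, a c-ring gene, with 1.81, 1.38 and 2.12 TPM. The set lay 1.19 ± 0.16 above the other nuclear members on the log2(TPM + 1) scale in 3 of 3 libraries, with a median of 12.7, 11.9 and 13.6 TPM against 4.30, 4.90 and 5.93 TPM. In the other transcript table the difference was 0.65 ± 0.15. The second Atp5o entry, a model that spans several neighbouring genes, had 0 counts in all libraries.

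The median of the 13 mtDNA-encoded genes was 48.7, 28.8 and 32.9 TPM, against 5.18, 5.62 and 6.51 TPM for the 85 nuclear members. The difference was 3.01, 2.17 and 2.18 on the log2(TPM + 1) scale, a mean of 2.45 ± 0.48, and 1.39 ± 0.48 in the other transcript table. The mtDNA genes took 0.0822%, 0.0450% and 0.0478% of expected counts. Both measures leave out the chromosome 1 copies described below. With these added, a choice made after the data were seen, the share was 0.104%, 0.0521% and 0.0588%. The mean difference was then 2.98 ± 0.44. That these organelle RNAs appear in a chromatin fraction at all is a measured fact of these libraries, and how they came to be there was not tested. mt-Co1, the catalytic subunit of complex IV, was highest with 442, 224 and 254 TPM and 6425, 5653 and 4953 counts. mt-Atp8, a small stator subunit of complex V, had 389, 143 and 176 TPM, a level that rests on 134, 53 and 54 counts over effective lengths of 31.7, 18.8 and 20.4 bases. Per count, with no length correction, it was among the 3 lowest mtDNA genes once the copies described next were added.

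Of the complex I genes on mtDNA, mt-Nd6 had 105, 57.2 and 71.4 TPM, and it is the member encoded on the opposite strand of the circle. mt-Nd1, a membrane-arm subunit next to the quinone tunnel, had 65.7, 33.5 and 37.0 TPM. mt-Nd5, a proton-pumping subunit, had 56.4, 34.8 and 37.7 TPM. mt-Nd4, another pumping subunit, had 48.7, 28.6 and 36.1 TPM, and mt-Nd2 had 32.1, 19.2 and 22.2 TPM. mt-Cytb, the quinone-binding cytochrome b of complex III, had 65.8, 28.0 and 32.9 TPM. Replicate 1 was highest for each of these 6 genes, and the ranges of mt-Nd1, mt-Nd5, mt-Nd4 and mt-Cytb overlapped.

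The remaining 5 mtDNA genes were listed at or near 0 in some libraries and not in others. mt-Co2, the copper subunit that takes electrons from cytochrome c, had 0, 457 and 0 counts. mt-Co3, a structural core subunit of complex IV, had 13.7, 286 and 0.750 counts. mt-Atp6, the proton channel subunit of complex V, had 200.3, 0 and 147 counts. mt-Nd3 had 0, 60.0 and 0 counts and mt-Nd4l 39.0, 31.0 and 0 counts. The mouse genome also holds a copy of this stretch of mtDNA on chromosome 1, annotated as pseudogenes on mm10 at chr1:24611535-24616197. The 5 genes share 98.0% to 99.9% of their 50-base windows with those pseudogenes. Reads of a gene and its copy cannot be told apart there.

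Sequences of both members of 2 such pairs are given because they show what the counting had to separate. They are the opening 120 bases of each transcript from the GENCODE M21 transcripts, on mm10, with the base that differs in capitals. mt-Nd3 lies at chrM:9459-9578 on the plus strand, and its copy Gm28438 at chr1:24613000-24613119 on the minus strand. Over 345 compared bases this pair differs at 1 position, T3C, counted from the 5′ end of the mtDNA transcript. mt-Nd4l lies at chrM:9877-9996 on the plus strand, and its copy Gm10222 at chr1:24612581-24612700 on the minus strand, with no difference in 294 compared bases.
mt-Nd3: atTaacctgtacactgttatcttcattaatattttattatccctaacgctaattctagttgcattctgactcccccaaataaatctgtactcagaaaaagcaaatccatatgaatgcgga
Gm28438: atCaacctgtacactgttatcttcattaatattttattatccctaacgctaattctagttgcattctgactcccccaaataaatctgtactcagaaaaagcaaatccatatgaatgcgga
mt-Nd4l: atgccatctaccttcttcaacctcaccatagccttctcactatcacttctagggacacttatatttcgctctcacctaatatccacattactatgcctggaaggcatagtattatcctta
Gm10222: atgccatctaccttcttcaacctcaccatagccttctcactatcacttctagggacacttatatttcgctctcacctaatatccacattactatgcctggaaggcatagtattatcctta

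The copies held the counts that the mtDNA genes lacked. Gm28661, the mt-Co2 copy, had 1088, 386 and 763 counts, and the sum of mt-Co2 with it was 1088, 843 and 763 counts. Gm28437, the mt-Co3 copy, had 883, 597 and 745 counts, with sums of 897, 883 and 746. Gm10925, the mt-Atp6 copy, had 499, 504 and 238 counts, with sums of 699, 504 and 385. The sums of mt-Nd3 and Gm28438 were 65, 60 and 48 counts, and those of mt-Nd4l and Gm10222 were 75, 56 and 54 counts. No sum was near 0 in any library, while the mtDNA share of the 5 sums was 8.96%, 35.6% and 7.42%. The table made from the reads directly placed less of it on chromosome 1: the 7 copies took 0.0213%, 0.00710% and 0.0110% of expected counts in the gene table, and 0.00710%, 0.000917% and 0.00144% in the other. mt-Co1 and mt-Nd4 share 28.7% and 62.2% of their windows with Gm29216 and Gm28439. In the gene table they kept at least 98.5% of their summed counts in every library. The other table placed more on these 2 copies. There Gm29216 had 78.6, 6.38 and 12.2 TPM, beside 302, 151 and 170 TPM for mt-Co1. Gm28439 had 0, 3.16 and 5.11 TPM, beside 35.1, 17.1 and 21.8 TPM for mt-Nd4. The 6 other mtDNA genes share no 50-base window with an annotated transcript on chromosome 1. Unannotated sequence of that chromosome was not searched. mt-Atp8 lies on mtDNA between mt-Co2 and mt-Atp6, which both have copies there, so an unannotated copy of it is possible.

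**Figure D2:**
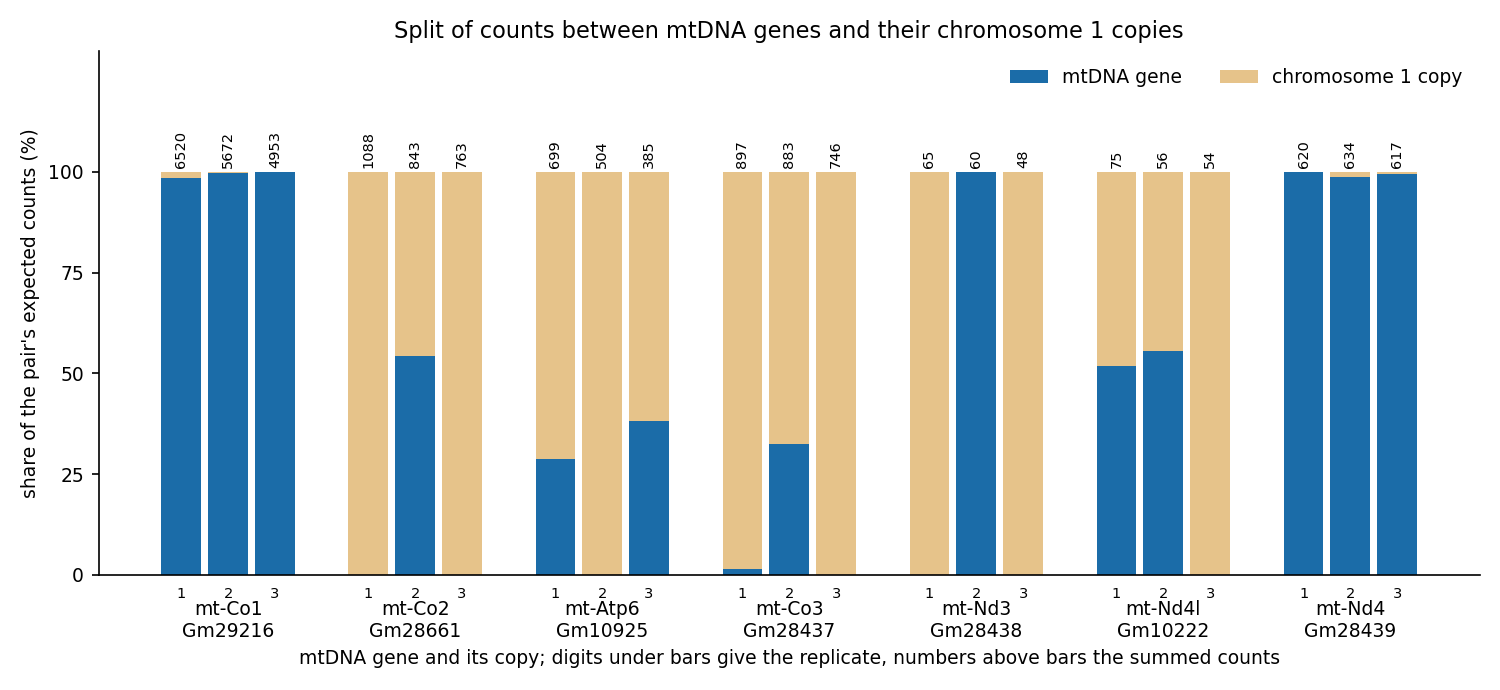
Share of the summed expected counts of each pair that fell on the mtDNA gene and on its chromosome 1 copy, in percent, with 3 bars a pair for replicates 1 to 3 and the summed counts above the bars. The mtDNA share of mt-Co2, mt-Atp6, mt-Co3, mt-Nd3 and mt-Nd4l jumps between libraries, while their sums stay within 1088 to 763, 699 to 385, 897 to 746, 65 to 48 and 75 to 54 counts.

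With the copies added, all 13 mtDNA genes were highest in replicate 1. mt-Co2 then had 211, 102 and 118 TPM, mt-Co3 143, 86.2 and 93.0 TPM and mt-Atp6 136, 61.6 and 59.6 TPM. Relative to the mean of replicates 2 and 3, replicate 1 had 1.51 to 3.79 times the CPM, lowest for mt-Nd4 and highest for mt-Atp8. The mitochondrial ribosomal RNAs moved with this and further, with 162, 11.8 and 21.6 TPM for mt-Rnr1 and 30.4, 5.21 and 6.69 TPM for mt-Rnr2, ratios of 10.1 and 5.13. Replicate 1 also had the most starting RNA and the fewest counts, and the part of either in these ratios was not tested. Nuclear members went otherwise: of 72 detected ones, 14 were highest in replicate 1, 21 in replicate 2 and 37 in replicate 3. Of the other detected protein-coding genes 38.4%, 27.4% and 34.2% were highest in replicates 1, 2 and 3.

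**Figure D3:**
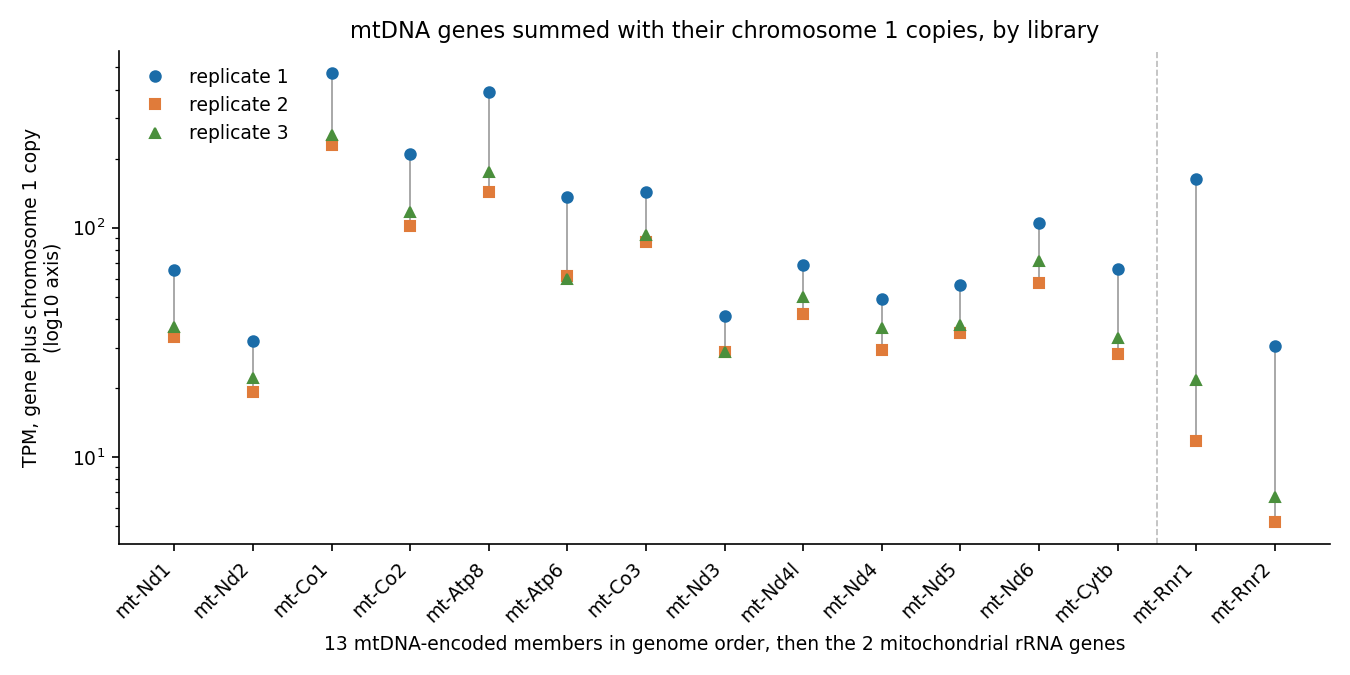
TPM on a log10 axis of the 13 mtDNA-encoded genes in genome order, each summed with its chromosome 1 copy where one is annotated, and of the 2 mitochondrial ribosomal RNA genes, with a point per library. Replicate 1 is highest for all 15 genes, and the gap is widest for mt-Rnr1 at 162 against 11.8 and 21.6 TPM.

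mt-Atp8 and mt-Atp6 share 43 bases of the same RNA in different reading frames. The end of mt-Atp8 at chrM:7890-7969, plus strand of mm10, is given with those bases in capitals, because reads there can count for either gene.
mt-Atp8: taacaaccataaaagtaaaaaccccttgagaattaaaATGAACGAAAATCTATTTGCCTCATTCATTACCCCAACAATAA

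Paralog pairs split by known tissue range in every library. Cox4i1 had 23.1, 27.8 and 30.2 TPM, against 0, 0.110 and 0 TPM for Cox4i2, the hypoxia- and lung-associated form. Cox6a1 had 3.61, 4.68 and 6.82 TPM, against 0.190, 0 and 0.310 TPM for Cox6a2, the heart and muscle form. Cox6b1 had 8.19, 14.1 and 47.7 TPM, and Cox6b2, the testis form, had 0 counts in all libraries. A count of 0 allows up to 3 counts, or 1.03, 0.701 and 0.873 TPM of Cox6b2. By total TPM, Cox6b1 was thus at least 7.98-, 20.1- and 54.6-fold higher than Cox6b2, taking 3 counts of Cox6b2 per library. Protein-coding transcripts of Cox6b1 held only 6.80, 3.99 and 4.99 TPM of this, still above those limits in each library. Isoforms that are not protein-coding held the rest, with 31.3 and 11.4 TPM in replicate 3. The rise of these folds from replicate 1 to 3 is therefore not seen on protein-coding transcripts. Cox7a2 had 3.54, 5.59 and 7.48 TPM, against 0.660, 0.580 and 0 TPM for Cox7a1, the muscle form. Cox8a had 3.47, 4.39 and 4.41 TPM, against 0, 0.440 and 0 TPM for Cox8b, also a muscle form. Ndufa4 had 1.94, 2.91 and 4.07 TPM, against 0.120, 0 and 0 TPM for Ndufa4l2, a hypoxia-induced paralog. Broad and restricted forms did not overlap in any pair. Each restricted form had at most 2 counts in a library.

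Differences of the pairs on the log2(TPM + 1) scale ran from 1.90 ± 0.48 for Ndufa4 to 4.75 ± 0.19 for Cox4i1, with a mean over the 6 pairs of 2.93 ± 0.53. Each exact two-sided sign-flip test gave p = 0.25, also when adjusted over the 6 pairs by Benjamini-Hochberg. That is the smallest p that 3 libraries allow. The other transcript table gave Cox7a1 9.54, 6.11 and 7.09 TPM and Cox8b 2.66, 3.85 and 3.98 TPM, so these 2 paralogs are not at background there. Its differences for their pairs were 1.94 ± 0.51 and 2.34 ± 0.66. Cox4i2 with 1.33, 0.753 and 1.24 TPM and Cox6a2 with 1.095, 0.702 and 0.686 TPM were not at 0 there either. Ndufa4l2 had at most 0.308 TPM and Cox6b2 0 TPM. Cox7b2 and Cox8c, restricted forms outside the 6 pairs, had 0 counts in all libraries of the gene table. That allows up to 0.82, 0.541 and 0.679 TPM for Cox7b2 and 1.09, 0.757 and 0.939 TPM for Cox8c. The other transcript table gave Cox7b2 1.02, 0.806 and 0.362 TPM and Cox8c 0 TPM.

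**Figure D4:**
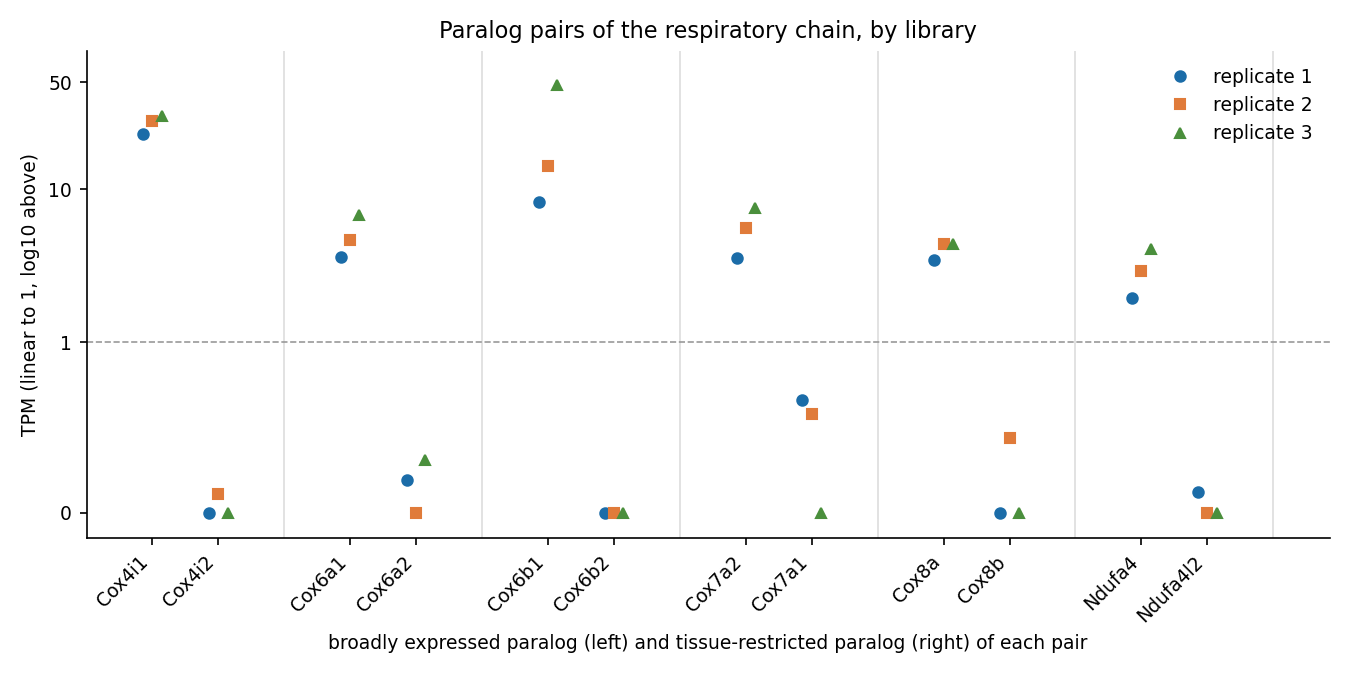
TPM of both genes of 6 paralog pairs, the broadly expressed one left of the tissue-restricted one, with a point per library, on an axis that is linear up to 1 and log10 above. The dashed line marks 1 TPM. All 6 broad genes lie above it and all 6 restricted genes below it in every library.

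The c-ring subunit of ATP synthase is encoded by 3 genes that differ in the import signal and give the same mature protein. Of their summed TPM, Atp5g3 held 70.4%, 70.6% and 76.6%, Atp5g2 23.8%, 25.5% and 17.7%, and Atp5g1 5.83%, 3.91% and 5.79%. The order of these total TPM was the same in each library. On protein-coding transcripts alone it was another one, with 7.40, 9.00 and 6.47 TPM for Atp5g2, 2.09, 6.08 and 4.75 TPM for Atp5g3 and 1.81, 1.39 and 2.12 TPM for Atp5g1. In the other transcript table Atp5g3 led on protein-coding transcripts too, with 9.95, 8.93 and 8.75 TPM against 7.16, 8.10 and 6.85 TPM for Atp5g2. Without length correction Atp5g1 had 40, 71 and 56.8 counts and Atp5g2 38, 75.9 and 41.9 counts, so their order changed between libraries. The mean shares of total TPM in the other transcript table were 68.3%, 19.3% and 12.4% in the same gene order.

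Partners of the chain were measured for scale. Assembly factors, proteins that build the complexes and are not part of them, had a median of 3.45 ± 0.519 TPM, with 31 of 45 detected. The nuclear members lay above them by 0.61 ± 0.07 on the log2(TPM + 1) scale in 3 of 3 libraries, and by 0.22 ± 0.18 with TMM-scaled CPM. Cox17, a copper chaperone of complex IV, was the highest with 57.0, 32.1 and 40.6 TPM, followed by Surf1, a complex IV assembly protein, with 23.4, 30.3 and 26.6 TPM. Lyrm7, which matures the Rieske protein, was the lowest with 0, 0.130 and 0.0800 TPM. Of 78 mitochondrial ribosomal protein genes 69 were detected, and their median was 3.99 ± 0.270 TPM. The nuclear members lay above these by 0.44 ± 0.08 with TPM and below them, by -0.15 ± 0.11, with TMM-scaled CPM, so that direction depends on length correction. Mrpl24 and Mrps9 were the highest of these, at 41.1 ± 4.83 and 26.0 ± 1.60 TPM, and Mrps28 the lowest at 0.917 ± 0.936 TPM.

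All 14 TCA cycle genes were detected, with a median of 19.5 ± 2.37 TPM, from 104 ± 13.2 TPM for Dlst, a subunit of the 2-oxoglutarate dehydrogenase complex, and 46.4 ± 10.7 TPM for Idh3b, of isocitrate dehydrogenase, down to 2.57 ± 0.931 TPM for Fh1, fumarase. The 10 electron carriers and partners that the symbol rule leaves out were all detected, with a median of 8.96 ± 0.930 TPM. Gpd2, the mitochondrial glycerol phosphate dehydrogenase, had 27.2, 31.0 and 39.1 TPM, and Ndufab1, the acyl carrier protein of complex I, had 19.3, 20.7 and 22.3 TPM. The lowest was Dhodh, of pyrimidine synthesis, with 1.08, 3.40 and 2.62 TPM.

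Factors that copy and maintain mtDNA had a median of 4.16 ± 0.950 TPM with 20 of 26 detected. Polg, the mtDNA polymerase, was highest at 43.9, 57.0 and 63.1 TPM, and Pnpt1, an RNA exonuclease of mitochondria, had 36.4, 28.9 and 25.2 TPM. The lowest was Top1mt, the mitochondrial topoisomerase, with 0.370, 0.870 and 0.560 TPM. Of 11 nuclear regulators known to act on respiratory genes 10 were detected. Creb1 had 81.7, 49.8 and 62.5 TPM and Esrra, an orphan nuclear receptor, 51.8, 59.1 and 47.2 TPM. Ppargc1a, the coactivator known from muscle and brown fat, had 0 TPM in every library, and a mean of 2.27 TPM in the other transcript table. Its relatives Ppargc1b and Pprc1 had 13.2, 6.09 and 5.68 TPM and 19.7, 31.1 and 31.6 TPM.

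Of the 72 detected nuclear members, 44 have a transcript annotated as retained intron, that is, an isoform that still holds an intron. Among these 44, its median share of the gene's length-corrected TPM was 63.8%, 57.7% and 60.0%. Among 5837 other detected protein-coding genes with such a transcript it was 50.7%, 46.3% and 46.9%. The difference was 12.5 ± 0.991 percentage points, higher in 3 of 3 libraries, and 5.39 ± 0.594 points in the other transcript table. A mean share over 50% was found for 31 of the 44 members, against 46.5% of all detected protein-coding genes that have such a transcript. A high share was not particular to the members. The electron carriers and partners outside the rule, 7 genes, had 64.5%, 66.3% and 68.6%, above the members in each library. Mean medians were 55.8% for assembly factors, 45.8% for mtDNA factors and 43.1% for the nuclear regulators. RNA still being spliced and a stable isoform with the intron cannot be told apart in these tables.

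By complex the median share was 65.5%, 60.0% and 62.9% over 20 genes of complex I, 46.3%, 55.0% and 48.0% over 4 genes of complex III, 44.4%, 64.0% and 47.9% over 9 genes of complex IV and 67.5%, 55.6% and 60.3% over 10 genes of complex V. The order of the complexes was not stable, since complex IV was the highest of these in replicate 2. In the other transcript table the mean medians of complexes I, III, IV and V were 50.6%, 44.3%, 49.9% and 55.3%. The highest single shares were those of complex I accessory subunits. Ndufa6, of the matrix arm, had 97.8%, 92.0% and 76.3%, Ndufa7 94.7%, 86.7% and 76.2%, and Ndufb4, of the membrane arm, 100%, 91.7% and 65.2%. For Ndufa7 the other transcript table gave a mean of 29.8%, so its share depends on the table. Ndufa10 had 84.1%, 83.9% and 84.0%, almost the same in each library. The lowest were Ndufc1 with 0% in each library (a mean of 34.5% in the other transcript table), Uqcrc2, a core protein of complex III, with 7.81%, 23.6% and 20.9%, and Cox6a1 with 33.5%, 9.83% and 19.5%. Among the core complex I genes the 4 with such a transcript had a median of 72.5 ± 8.54%, with 79.1%, 59.2% and 67.4% for Ndufs1.

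**Figure D5:**
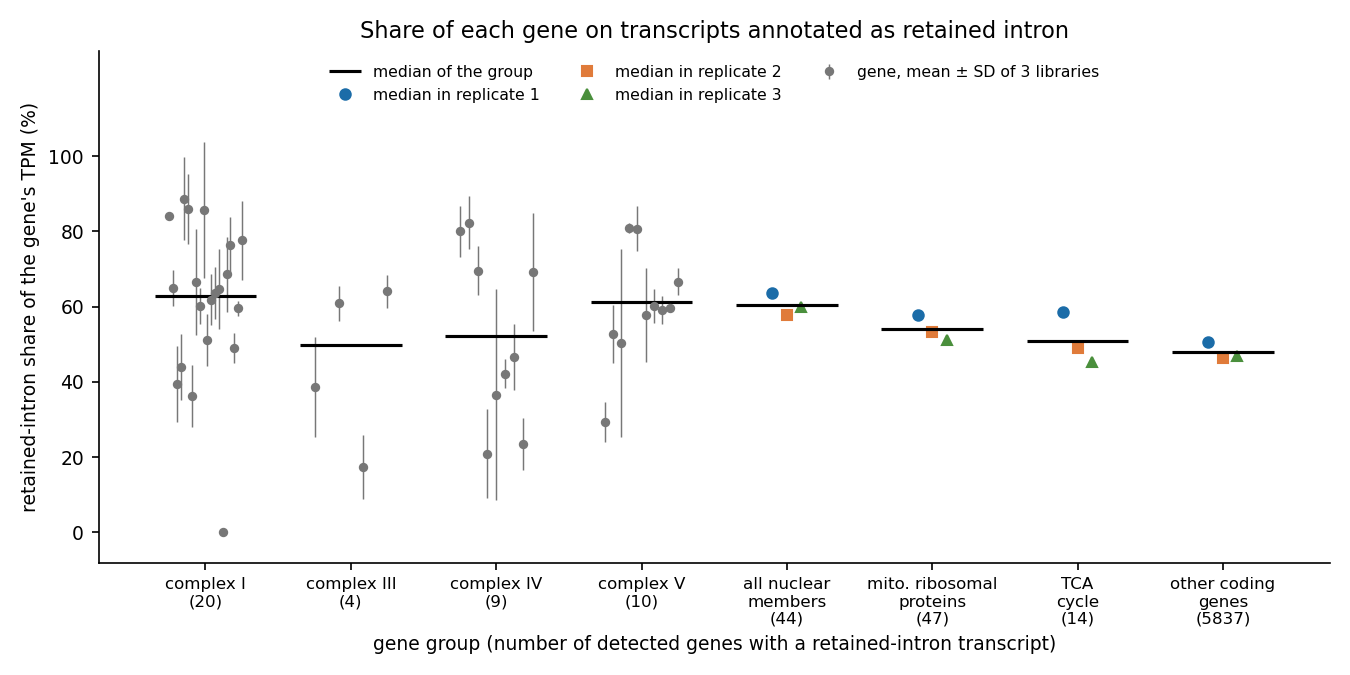
Share of each gene's TPM on transcripts annotated as retained intron, in percent. Grey points are single members with SD bars, black bars are group medians, and coloured points are group medians by library. The nuclear members lie at 60.5%, mitochondrial ribosomal protein genes at 54.1%, TCA cycle genes at 51.0% and other protein-coding genes at 48.0%. Other lists are not drawn, among them electron carriers and partners at 66.5%.

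Promoter letters were read for 68 of 85 nuclear members in 73 promoter windows of RefSeq on GRCm38.p6, which hold 250 bases before and 50 bases after a transcript start. Motifs were searched on both strands. NRF1, nuclear respiratory factor 1, binds palindromic GC-rich sites, and its core GCATGCGC was in 13.7% of member windows, against 2.71% of all 32851 windows and 5.54% of windows of other detected protein-coding genes. The ETS core CCGGAAG, the letters bound by the GABP (NRF2) factor, was in 21.9%, against 8.86% and 20.3%. The YY1 core AAGATGGC was in 13.7%, against 2.75% and 5.04%. The cAMP response element TGACGTCA was in 5.48%, against 1.79% and 3.19%, the CCAAT box CCAAT in 42.5%, against 37.4% and 37.1%, and TATAAA in 11.0%, against 13.6% and 6.85%. Member windows had a median GC content of 57.3%, all windows 52.7% and windows of other detected genes 60.7%. The NRF1 core and its reverse complement overlap each other. Set against other detected genes, the ETS share was thus close to theirs, and the NRF1 and YY1 shares were larger. The member windows include those of undetected members, so the 2 sides are not filtered alike.

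The promoters of 3 members are given: Atp5k, the highest member with an NRF1 core, which also holds an ETS core, Atp5j, the next highest with an ETS core, and Sdhb, which like Atp5k holds both. Capitals mark the NRF1, ETS and YY1 cores found on either strand. Atp5k (chr5:108434350-108434649, minus strand) had overlapping NRF1 cores starting 50 and 48 bases before the start and an ETS core at base 13 after it. Atp5j (chr16:84834927-84835226, minus strand) had a YY1 and an ETS core before the start. A second Atp5j window, at chr16:84835576-84835875, held no NRF1, ETS or YY1 core and is not printed. On the opposite strand Atp5j overlaps Gabpa, the gene of the GABP subunit that binds ETS sites, which had 15.1, 11.0 and 11.9 TPM. Sdhb (chr4:140961021-140961320, plus strand) had an NRF1 core 54 bases before the start and an ETS core at base 7.
Atp5k: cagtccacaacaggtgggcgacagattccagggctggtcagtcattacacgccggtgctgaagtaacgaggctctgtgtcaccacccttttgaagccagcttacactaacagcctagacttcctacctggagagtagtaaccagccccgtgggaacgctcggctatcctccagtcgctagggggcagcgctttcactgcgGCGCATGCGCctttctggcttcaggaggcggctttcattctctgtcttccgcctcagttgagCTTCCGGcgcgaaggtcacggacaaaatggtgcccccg
Atp5j: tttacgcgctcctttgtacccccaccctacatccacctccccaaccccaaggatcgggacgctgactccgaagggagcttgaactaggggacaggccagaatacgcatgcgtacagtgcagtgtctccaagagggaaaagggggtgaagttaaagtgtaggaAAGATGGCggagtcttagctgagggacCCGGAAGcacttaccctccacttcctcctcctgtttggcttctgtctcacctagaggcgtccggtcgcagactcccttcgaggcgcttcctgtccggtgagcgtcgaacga
Sdhb: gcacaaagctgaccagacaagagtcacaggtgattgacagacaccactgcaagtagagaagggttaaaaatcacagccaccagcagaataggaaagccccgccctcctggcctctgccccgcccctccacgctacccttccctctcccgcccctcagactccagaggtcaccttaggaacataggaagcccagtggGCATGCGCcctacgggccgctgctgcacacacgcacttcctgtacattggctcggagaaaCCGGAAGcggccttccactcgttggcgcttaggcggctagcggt

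The YY1 core sat after the transcript start in 8 of the 10 member windows that hold it, between bases 23 and 39. Over all windows with the core 41.3% had it after the start, and 54.0% of those of other detected protein-coding genes. In all 8 members the ATG inside the core is an annotated start codon of the gene in GENCODE M21. How often this holds for other genes with the core after the start was not counted, so it is not shown to be particular to the members. The 8 stretches of 22 bases are given because the shared letters span that start codon, with the core in capitals. On GRCm38.p6 they lie at chr19:44555393-44555414 (minus strand) for Ndufb8, chr13:114388048-114388069 (minus) for Ndufs4, chr10:80249463-80249484 (plus) for Ndufs7 and chr5:145191507-145191528 (minus) for Atp5j2. The others lie at chr7:3617385-3617406 (plus) for Ndufa3, chr6:126849104-126849125 (minus) for Ndufa9, chr13:73328438-73328459 (minus) for Ndufs6 and chr3:51408922-51408943 (minus) for Ndufc1.
Ndufb8: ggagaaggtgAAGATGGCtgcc
Ndufs4: tgcctacaggAAGATGGCggcg
Ndufs7: ggccgaggccAAGATGGCggcg
Atp5j2: ccaggacttcAAGATGGCgtca
Ndufa3: cgccaagaacAAGATGGCcggg
Ndufa9: attgtgggagAAGATGGCggcc
Ndufs6: ggtcaccggcAAGATGGCggcg
Ndufc1: cctgcggaacAAGATGGCgccg

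Of these genes, 7 encode complex I subunits and Atp5j2 encodes the f subunit of ATP synthase. Their mean levels ran from 1.73 ± 0.341 TPM for Ndufc1 to 11.6 ± 1.83 TPM for Ndufb8. The 10 genes with a YY1 core had a median of 7.56 ± 1.56 TPM, against 5.54 ± 0.624 TPM for the 58 without. The 10 genes with an NRF1 core had 10.9 ± 2.11 TPM, against 5.37 ± 0.733 TPM for the 58 without, and the 16 with an ETS core 9.74 ± 1.02 TPM, against 5.37 ± 0.953 TPM for the 52 without. Each of these groups ranges widely, from 1.13 to 52.3 TPM for genes with an NRF1 core and from 0 to 96.8 TPM for those without. Undetected members were kept in these groups. A motif match is letters in a window and no measured binding.

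Libraries ranked the nuclear members alike, with Spearman's rho across the 85 genes of 0.938, 0.923 and 0.934 for replicates 1 and 2, 1 and 3, and 2 and 3, a description across genes that are not independent. The median SD of log2 CPM between libraries was 0.23 over 69 nuclear members with at least 10 counts in each library, 0.47 over 8 mtDNA members and 0.29 over 10159 other protein-coding genes. Single members varied more. Ndufa5 had 2, 19 and 9 counts, an SD of 1.13. Atp5s, a coupling factor that is no structural subunit, had 10, 66 and 45 counts, an SD of 1.08. Ndufa11, a membrane-arm accessory subunit, had 11, 16 and 53 counts, an SD of 1.07, and 2.89, 1.66 and 16.7 TPM. Cox7a1 and Ndufc2, with SDs of 0.96 and 0.94, rest on at most 2 and 24 counts. Replicate 1 was the lowest for Ndufa5, Atp5s and Ndufc2, and replicate 3 the highest for Ndufa11. Cox6b1 differed more in TPM than in CPM, which were 2.58, 2.61 and 4.97, as its effective length was 371, 188 and 117 bases.

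The transcript table made from the reads directly gave mean levels over 2-fold higher than the gene table for 20 of 72 detected nuclear members, against 17.4% of all detected protein-coding nuclear genes, and over 2-fold lower ones for none. The median ratio was 1.57 for the members and 1.28 for all detected protein-coding genes. The 3 most different were Sdhc at 5.95-fold, Cox7a2 at 5.78-fold and Cox8a at 5.44-fold. Of the 85 nuclear members 38 overlap another annotated gene and 30 overlap a gene on the opposite strand. The sources used here do not say if counting was stranded, and reads of such pairs then cannot be told apart.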

How the data were processed

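Per the file headers and the descriptive text deposited with each sample, the authors provided gene and transcript tables quantified after transcriptome alignment, and another transcript table quantified from reads without it, all on mm10 and GENCODE M21. Neither aligner nor quantifier is named in the sources used here. Expected counts, as deposited, are fractional estimates, and the deposited TPM are scaled over every feature of a library. Effective lengths in bases are other deposited columns, per the file headers. Rows that are no annotated gene took 1.34%, 0.292% and 0.416% of counts and were left out.

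A list's level was the median of log2(TPM + 1), compared within each library. Such log2 differences understate folds of low genes. With 1 group no conditions were compared. Rounded counts gave TMM factors and log2 CPM (prior count 1) in edgeR 4.0.16 and size factors in DESeq2 1.42.0, in R 4.3.3. Python 3.11.15, numpy 2.4.6, pandas 2.3.3, SciPy 1.17.1 and matplotlib 3.10.9 did the rest, and the list comparison was tested on simulated data. Copies of mtDNA were found by exact 50-base windows in M21 transcripts. Limits from a count of 0 cover counting error only.

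Members and lists were chosen with earlier results of these data known. Prorp and Fastkd4 matched no symbol. Named genes are all mtDNA members, the 3 highest and the lowest detected gene per complex, paralogs, members with 0 counts, the extremes of retained-intron share, spread (5) and table differences (3), and the 2 highest and the lowest gene per list. A gene that this rule selects is not reported here. Others, such as Cyc1, Uqcrfs1, Atp5a1, Atp5d, Gabpa, Ppargc1b, Pprc1 the nuclear genes of largest spread (over all members the 5 largest are mtDNA genes) and genes named for their promoter, were chosen after their values were seen. Alternatives covered the pseudocount, tables, scaling, filters, restricted paralogs and leaving out each library.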

Additional observations from a re-analysis of the deposited data

How the results depend on the processing

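Differences in this paragraph are of list medians on the log2 scale, and the cause of each shift was not tested. With TMM-scaled CPM, which are not corrected for length, nuclear members minus other protein-coding genes was -1.49, minus assembly factors 0.22 and minus mitochondrial ribosomal protein genes -0.15. On that scale complexes I to V minus the other nuclear members gave -0.74, 1.53, -0.23, -1.36 and 1.63, and broad minus restricted paralogs 4.72. With DESeq2 size factors the same results were -1.49, 0.22, -0.15, then -0.74, 1.53, -0.23, -1.36 and 1.63, and 4.69. In the other transcript table nuclear members minus other genes was 0.25 and minus ribosomal protein genes 0.65, mitochondrial minus nuclear members 1.39, and complexes I to V gave -0.61, 0.76, -0.21, 0.11 and 0.65. With restricted paralogs left out, nuclear members gave 0.23 against other genes, 0.81 against assembly factors and 0.65 against ribosomal protein genes, and complexes I to V gave -0.69, 0.34, -0.14, 0.91 and 1.02. Without members below a mean of 1 TPM, nuclear members gave -0.41 against other genes and 0.66 against ribosomal protein genes, and complexes I to IV gave -0.77, 0.30, -0.20 and 0.85. Taking the mean of each list instead of its median, nuclear members minus other genes was -0.11, mitochondrial minus nuclear 1.84, and complexes II to V gave 0.69, 0.32, -0.60 and 0.99. Complex IV thus changed direction with its restricted paralogs or low genes left out and in the other table. Without the filter at 0.1 TPM nuclear members minus other genes was 2.33. A pseudocount of 0.1 gave 0.73 against assembly factors and 5.43 for paralogs, and TPM rescaled to protein-coding genes 0.70 and 4.26. Summed with the chromosome 1 copies, an alternative chosen after seeing the data, mitochondrial minus nuclear members was 2.98. With protein-coding genes as the denominator the mtDNA members took 0.0921% of counts. At 5 TPM in each library 40 nuclear members were detected, and the retained-intron difference was 13.8 points, 10.4 points as a mean over genes and 5.39 in the other transcript table. The spread difference was -0.07 with TMM, -0.039 with TPM and 0.025 with no filter on low counts, so its direction depends on that filter.

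Leaving out each library in turn gave ranges of -0.03 to 0.05 for nuclear members minus other genes, 2.17 to 2.59 for mitochondrial minus nuclear members, and -0.115 to -0.0191 for the spread. Nuclear members detected ranged from 72 to 75. Of 135 alternatives over 14 results, 73 moved a value by less than the spread between libraries (a count or a spread by under 1.5 times), 56 moved it further and 6 turned the direction of a difference that was larger than its spread. A further 10 changed the sign of a difference within its spread, that of nuclear members minus other genes or of complex III. No paired analysis was possible because all 3 libraries form 1 group. Depth limits the low members: a gene with under 10 counts in a library, such as Ndufa5 or Ndufc2, is set by few reads. With 3 libraries the exact sign-flip test cannot go below p = 0.25, and levels of the 5 mtDNA genes with near-identical copies hold as sums only.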

Other observations

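Members of ATP synthase not described above also lay at moderate levels. Atp5h, of the peripheral stalk, had 16.7, 21.1 and 18.1 TPM, and Atp5f1, the b subunit of that stalk, had 19.9, 14.6 and 15.0 TPM. Atp5l, the g subunit of the membrane part, had 15.6, 13.1 and 13.2 TPM. The main Atp5o entry, the stalk subunit that binds the F1 head, had 10.6, 9.70 and 14.0 TPM. The ranges of these 4 genes overlapped in part. In complex IV, Cox5b had 15.9, 20.1 and 16.6 TPM and Cox6c 23.5, 18.2 and 22.9 TPM, while Cox7a2l had 6.59, 7.20 and 8.87 TPM. The 3 members on the X chromosome were Cox7b with 7.77, 4.83 and 4.07 TPM, Ndufa1 with 3.00, 2.76 and 2.26 TPM and Ndufb11 with 2.36, 2.52 and 2.42 TPM. Cycs, cytochrome c, which carries electrons to complex IV, had 16.4, 10.1 and 12.9 TPM, and Ucp2, an inner-membrane carrier abundant in macrophages, 12.8, 20.6 and 15.2 TPM.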
